A study of Caenorhabditis elegans with 12 samples.

Results

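The irg genes (infection response genes) of Caenorhabditis elegans are named for their rise when the worm meets a pathogen. The 8 genes irg-1 to irg-8 were looked up by gene identifier in the annotation of genome build WBcel235 and then in the deposited expression matrix, which lists 14326 genes. A row was found for 7 of the 8, and irg-6 was not analysed here. The rule used gene names only, but the genes were chosen with earlier results of these data known. Expression was measured in counts per 1000000 reads in genes (CPM).

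Worms lack mobile immune cells, and the intestine is the main surface at which swallowed bacteria meet a transcribed response. One arm of that response runs through the p38 kinase PMK-1, which is switched on by the adaptor TIR-1 and the kinases NSY-1 and SEK-1 and acts in part through the factor ATF-7. Another arm watches core cell processes such as translation and runs through the bZIP factors ZIP-2 and CEBP-2, on which induction of irg-1 by Pseudomonas aeruginosa depends. The genes irg-4, irg-5 and irg-6 encode secreted CUB-like proteins whose intestinal expression needs PMK-1, and irg-7 encodes a C-type lectin domain protein required for pathogen resistance and for the long life of worms without germ cells.

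Messenger RNA of whole young adults that were not yet fertile came from wild type, from the isp-1 mutant and from worms that also lack a dismutase gene, isp-1;sod-3 (here the sod-3 double mutant) and isp-1;sod-5 (the sod-5 double mutant). Each of the 4 genotypes has 3 libraries. The gene isp-1 encodes the Rieske iron-sulphur subunit of respiratory complex III, sod-3 a mitochondrial and sod-5 a cytosolic superoxide dismutase. All worms grew at 20 °C on NGM agar with OP50, the standard Escherichia coli food, so no group was exposed to a pathogen by the labels, and the labels name no alleles. The design text describes 9 RNA isolates a genotype, combined by 3 into each library, whereas the pooling label reads none, so p-values measure the spread between libraries as deposited.

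Reads in genes ran from 5438798 to 155071752 a library, and 1 read was worth 0.00645 to 0.184 CPM. Transcripts of sod-3 averaged 19.8 CPM in isp-1, 19.4 CPM in the sod-5 double mutant, 2.08 CPM in wild type and 1.12 CPM in the sod-3 double mutant, lower in the genotype labelled as lacking it than in isp-1 (limma adjusted p = 0.000123). Those of sod-5 were highest in the sod-3 double mutant at 1.15 CPM, with 0.418 in isp-1, 0.179 in the sod-5 double mutant and 0.172 in wild type, too low to check that label. All 18 intestinal markers listed were present. Their summed level was 6333 to 6529 CPM in wild type, 4785 to 5133 CPM in isp-1, 4736 to 5958 CPM in the sod-3 double mutant and 4690 to 6566 CPM in the sod-5 double mutant. In isp-1 against wild type limma called 2 of them higher (ges-1 and gem-4) and 2 lower (cpr-1 and asp-1), beside 9.60% and 10.4% of all tested genes. By edgeR 2 were higher and 3 lower, by DESeq2 2 and 4, and 4 and 4 passed an unadjusted limma p under 0.05. The part of the intestinal share in the differences described here was not tested. Against isp-1 limma and edgeR called 0 of the 18 in either double mutant, DESeq2 1 in each, and 4 and 2 passed an unadjusted p under 0.05. In RNA of whole worms, fewer cells of a type and less RNA per cell cannot be told apart. No irg gene overlaps another annotated gene, which matters because no source used here gives the strand used in counting. The closest is C49G7.10, 160 bases from irg-2 on the opposite strand.

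Among the 6 irg genes that passed the filter on low values (above 1 CPM in at least 3 libraries), every called difference was a decrease. In isp-1 against wild type irg-1, irg-2 and irg-8 fell, 3 of 6, where 9.60% of the 14013 tested genes were higher and 10.4% lower. In the sod-3 double mutant against isp-1 limma called only irg-8 of the 6, lower, where 0.557% of all tested genes were higher and 0.528% lower. In the sod-5 double mutant against isp-1 it was again irg-8, lower, where 0.642% were higher and 0.564% lower. At an unadjusted limma p under 0.05, 3 of the 6 were lower in the sod-3 double mutant, and 1 was higher and 2 lower in the sod-5 double mutant. In each of these comparisons edgeR called 1 lower and DESeq2 2. Against wild type 5 fell in the sod-3 double mutant, all but irg-7, beside 10.4% higher and 6.57% lower. In the sod-5 double mutant the count was 4, all but irg-3 and irg-7, beside 14.1% higher and 10.2% lower. Between the double mutants 0 of 6 were called by limma, where 0.0285% of all genes were higher and 0.0785% lower in the sod-3 double mutant. At an unadjusted p under 0.05 there were 2 of the 6 (1 higher, 1 lower), and edgeR called 0 and DESeq2 1. Comparisons of the double mutants share their isp-1 or wild type libraries, so these counts are not independent of each other.

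**Figure D1:**
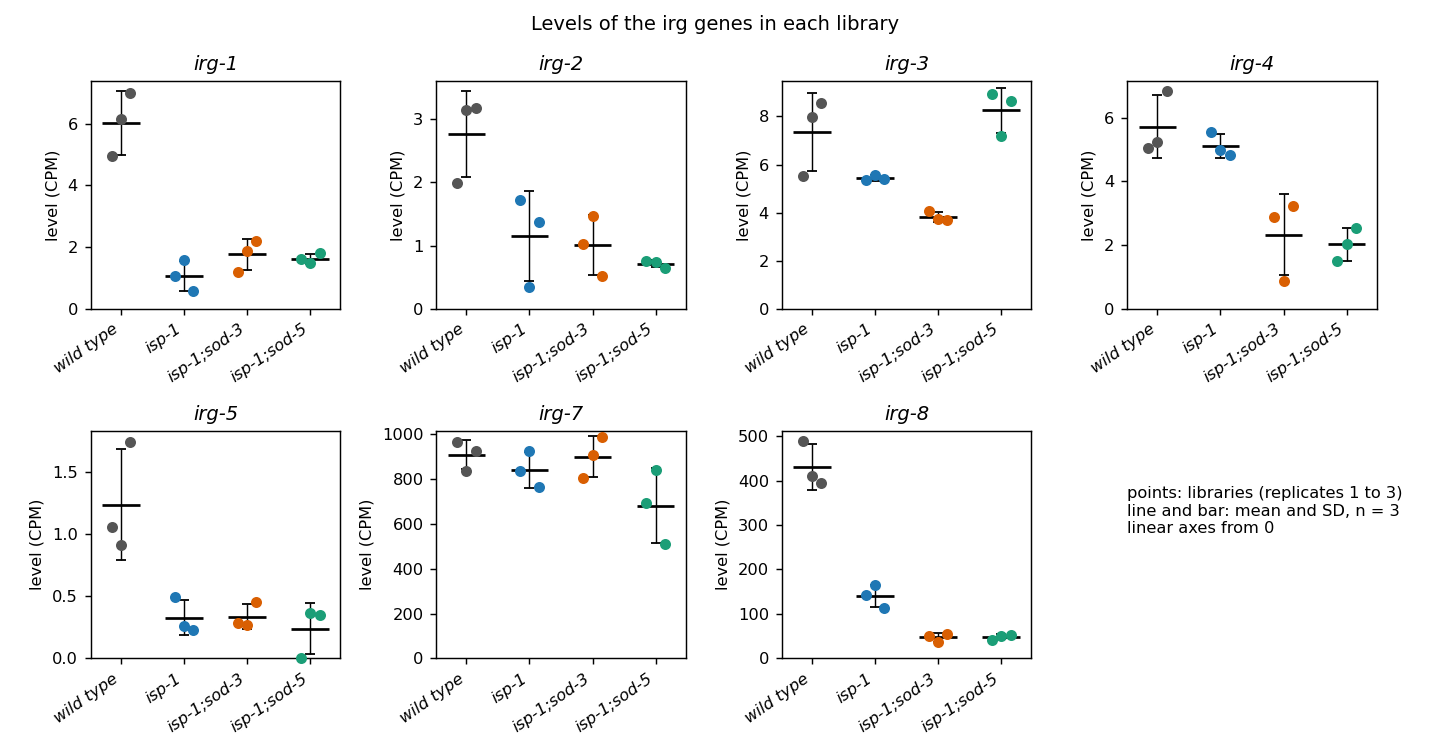
Levels of the 7 irg genes in CPM (vertical axes, linear and starting at 0) in each of the 12 libraries, by genotype; points are libraries, and lines with bars are the mean and SD of 3 libraries. Wild type libraries of irg-8 sit between 394 and 489 CPM, those of isp-1 between 114 and 164 CPM and those of the double mutants between 36.4 and 55.4 CPM. The irg-7 libraries of all genotypes mix, apart from those at 693 and 509 CPM in the sod-5 double mutant, which lie below every other library.

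The median log2 difference over the 6 was -0.73 in isp-1 against wild type beside 0.01 over all tested genes. It was -0.26 beside 0.03 in the sod-3 double mutant and -0.33 beside 0.05 in the sod-5 double mutant, both against isp-1. Against wild type it was -1.20 beside 0.01 in the sod-3 double mutant and -1.36 beside 0.04 in the sod-5 double mutant. Among the 6, every isp-1 library lay below every wild type library for irg-1, irg-2 and irg-8, a pattern shown downwards by 25.7% of tested genes. The untested irg-5 is left out of this, since it is in the matrix through its wild type libraries alone. Against wild type the same held for all but irg-7 in the sod-3 double mutant (17.8% of tested genes). In the sod-5 double mutant it held for irg-1, irg-2, irg-4 and irg-8 (18.6%). Against isp-1 it held for irg-3, irg-4 and irg-8 in the sod-3 double mutant (6.77%) and for irg-4 and irg-8 in the sod-5 double mutant (5.82%). Of the 6, irg-3 alone was lower in all libraries of the sod-3 double mutant than of the sod-5 double mutant (3.27%). The 7 genes together took 576 to 1473 CPM a library, and irg-7 and irg-8 made up 97.6% to 99.1% of that.

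Adjusted for exon length, irg-8 was the most abundant in wild type at 346 CPM per kb and irg-7 followed at 133 CPM per kb, with no overlap of their libraries. Next came irg-3 at 10.3, irg-1 at 8.03, irg-4 at 5.19, irg-2 at 2.38 and irg-5 at 1.11 CPM per kb. In that order only irg-3 and irg-1 overlapped in their wild type libraries. In isp-1 irg-7 stood at 123 and irg-8 at 113 CPM per kb, with overlapping libraries, followed by irg-3 at 7.61 and irg-4 at 4.64. There irg-1 at 1.42 and irg-2 at 0.989 CPM per kb overlapped, and irg-5 at 0.294 CPM per kb overlapped with irg-2. In the double mutants irg-7 was first, at 132 CPM per kb in the sod-3 double mutant and 99.8 in the sod-5 double mutant, and irg-8 was second at 38.04 and 39.2. After it came irg-3, at 5.35 and 11.5 CPM per kb. Libraries of irg-1 and irg-4 overlapped in both double mutants, at 2.34 and 2.11 CPM per kb in the sod-3 double mutant and at 2.16 and 1.84 in the sod-5 double mutant. Lowest were irg-2, at 0.866 and 0.613 CPM per kb, and irg-5, at 0.299 and 0.214. Among all genes per kb, irg-8 fell between percentiles 97.6 and 98.0 in wild type libraries and between 68.6 and 80.5 in those of the sod-3 double mutant.

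The gene irg-1 (WBGene00015574, chrV:3523587-3524679, plus strand, 4 exons and 750 exon bases) is the standard reporter of the surveillance arm. It stood at 4.94, 6.14 and 6.99 CPM in the wild type libraries and at 1.05, 1.57 and 0.574 CPM in isp-1. In the sod-3 double mutant the libraries held 1.21, 1.88 and 2.19 CPM and in the sod-5 double mutant 1.60, 1.47 and 1.80 CPM. All 9 mutant libraries lay below all 3 wild type libraries, and the mutant groups overlapped each other. Wild type averaged 6.02 ± 1.03 CPM (SD, n = 3), against 1.06 ± 0.497 CPM (SD, n = 3) for isp-1. On the log2(CPM + 0.5) scale irg-1 fell by 2.10 in isp-1 (SE 0.26, 4.28-fold lower, limma adjusted p = 0.000221). It fell by 1.54 in the sod-3 double mutant and by 1.61 in the sod-5 double mutant, both against wild type (adjusted p = 0.00148 and 0.00103). Against isp-1 the sod-3 double mutant differed by 0.56 (95% interval -0.01 to 1.13, adjusted p = 0.595) and the sod-5 double mutant by 0.49 (-0.08 to 1.06, adjusted p = 0.504). These intervals include both no difference and a rise of about 1 on the log2 scale. The isp-1 values rest on 17, 18 and 5 reads, and the 5 reads of replicate 3 carry a 95% Poisson interval of 0.186 to 1.34 CPM, which covers counting error only.

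The gene irg-2 (WBGene00016783, chrV:4042181-4043601, plus strand, 4 exons) was the lowest of the tested members per kb. Wild type libraries held 1.99, 3.15 and 3.17 CPM and isp-1 libraries 1.73, 0.349 and 1.38 CPM. In the sod-3 double mutant the values were 1.03, 1.47 and 0.516 CPM and in the sod-5 double mutant 0.752, 0.735 and 0.650 CPM. The isp-1 libraries all lay below wild type, replicate 1 close to the lowest wild type library and replicate 2 far below, on 4 reads. The fall in isp-1 was 1.08 on the log2 scale (SE 0.35, 2.11-fold lower, limma adjusted p = 0.0442). That call was lost in 11 of 24 alternative settings, in which the adjusted p ranged from 0.000595 to 0.164 over all 24. It was lost with the library numbers as a block (adjusted p = 0.0776), with edgeR (0.0581) and on leaving out any wild type library, isp-1 replicate 2 or 3, sod-3 double mutant replicate 1 or sod-5 double mutant replicate 2. Without isp-1 replicate 2 the difference was -0.66 with an adjusted p of 0.164. Against wild type irg-2 also fell by 1.15 in the sod-3 double mutant (adjusted p = 0.0384, lost in 8 of 24 settings) and by 1.41 in the sod-5 double mutant (adjusted p = 0.0116, and 0.0510 without wild type replicate 2). Against isp-1 it differed by -0.07 in the sod-3 double mutant (interval -0.82 to 0.68, adjusted p = 0.975) and by -0.33 in the sod-5 double mutant (-1.08 to 0.42, adjusted p = 0.763). Both intervals hold falls as well as rises.

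Among the members under PMK-1, irg-4 (WBGene00008584, chrIV:12435833-12438236, plus strand, 7 exons) had overlapping wild type and isp-1 levels and lower ones in the double mutants. Wild type libraries held 5.06, 5.24 and 6.85 CPM, and the isp-1 libraries 5.54, 4.97 and 4.82 CPM. In the sod-3 double mutant they held 2.88, 0.871 and 3.23 CPM and in the sod-5 double mutant 1.505, 2.02 and 2.55 CPM. All 6 double mutant libraries lay below all libraries of wild type and isp-1. The sod-5 double mutant values rest on 16, 11 and 51 reads and that of sod-3 double mutant replicate 2 on 13. The 11 reads carry a 95% Poisson interval of 1.01 to 3.62 CPM, which covers counting error only. The difference of isp-1 from wild type was -0.14 (95% interval -0.83 to 0.56, limma adjusted p = 0.811). Against wild type irg-4 fell by 1.25 in the sod-3 double mutant (2.38-fold lower, adjusted p = 0.0184) and by 1.31 in the sod-5 double mutant (2.48-fold lower, adjusted p = 0.0117). Against isp-1 the estimates were close to these, -1.12 (SE 0.32, interval -1.81 to -0.42) and -1.17 (interval -1.87 to -0.47), but did not pass the threshold over all genes (adjusted p = 0.181 and 0.124). DESeq2 called both (adjusted p = 0.0398 and 0.0111), over alternatives that ran from 0.0135 to 0.534 in the sod-3 double mutant and from 0.00668 to 0.366 in the sod-5 double mutant. The sod-5 double mutant call also passed without sod-3 double mutant replicate 2, a library outside that comparison that enters the shared estimate of spread (adjusted p = 0.00668). The sod-3 double mutant call against wild type was lost without wild type replicate 2 (adjusted p = 0.0527) or replicate 3 (0.0742) and in a fit of those 2 groups only (0.0642), and the sod-5 double mutant call without wild type replicate 3 (0.0509). The double mutants differed from each other by 0.05 (adjusted p = 0.984).

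The CUB-like gene irg-5 (WBGene00009429, chrV:13737010-13738474, minus strand, 7 exons) exceeded 1 CPM in 2 libraries, both wild type, and so fell under the filter. Wild type held 1.06, 0.908 and 1.74 CPM, isp-1 0.493, 0.261 and 0.230 CPM, and the sod-3 double mutant 0.284, 0.268 and 0.452 CPM. In the sod-5 double mutant the libraries held 0, 0.368 and 0.350 CPM, where the 0 reads of replicate 1 allow a level of up to 0.282 CPM by the limit of 3 reads and up to 0.347 CPM by the 95% Poisson interval. All 9 mutant libraries lay below all 3 wild type libraries, and the mutant groups overlapped. The wild type mean was 3.77 times that of isp-1, 3.69 times that of the sod-3 double mutant and 5.16 times that of the sod-5 double mutant. The matrix lists only genes above 1 CPM in at least 2 libraries, so irg-5 is in it through wild type alone, and these ratios are given as a description with no test. Between the mutants the exact two-sided permutation p was 0.9 for the sod-3 double mutant against isp-1, 0.6 for the sod-5 double mutant against isp-1 and 0.6 for one double mutant against the other, on 0 to 44 reads a library.

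The gene irg-3 (WBGene00018760, chrV:2592591-2595062, plus strand, 3 annotated transcripts) was the only member with every library of the sod-3 double mutant below those of the other 3 genotypes. Wild type libraries held 5.53, 7.96 and 8.57 CPM, and isp-1 libraries 5.36, 5.58 and 5.40 CPM. The sod-3 double mutant libraries held 4.06, 3.75 and 3.68 CPM and the sod-5 double mutant libraries 8.93, 7.17 and 8.64 CPM. Libraries of the sod-3 double mutant were thus the lowest, and all sod-5 double mutant libraries lay above those of isp-1 and overlapped the wild type range, with 2 of them above its highest library. Against wild type irg-3 fell by 0.84 in the sod-3 double mutant (1.79-fold lower, limma adjusted p = 0.00755) and differed by 0.17 in the sod-5 double mutant (adjusted p = 0.536). The difference of isp-1 from wild type was -0.38 (SE 0.18, interval -0.77 to 0.02, adjusted p = 0.166). Against isp-1 the differences were -0.46 in the sod-3 double mutant (interval -0.85 to -0.06, adjusted p = 0.455) and 0.55 in the sod-5 double mutant (interval 0.16 to 0.95, adjusted p = 0.230). Set directly against each other, the double mutants differed 2.01-fold, with the sod-3 double mutant lower by a log2 difference of -1.01 (interval -1.40 to -0.62). The unadjusted p was 9.16e-05 and the adjusted p 0.0740, which did not pass the threshold. It passed in DESeq2 (adjusted p = 0.00252) and without wild type replicate 1, which enters only the spread (0.0484), and ranged up to 1 over the other settings.

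The gene irg-7 (WBGene00018237, chrX:3235754-3243636, minus strand, 23 exons and 6823 exon bases) was high in all genotypes. Wild type libraries held 966, 837 and 923 CPM, and those of isp-1 836, 924 and 762 CPM. The values were 805, 905 and 987 CPM in the sod-3 double mutant, and 693, 841 and 509 CPM in the sod-5 double mutant. The groups overlapped throughout, apart from 2 sod-5 double mutant libraries that lay below every other library. The differences from wild type were -0.11 in isp-1 (95% interval -0.45 to 0.23, limma adjusted p = 0.669) and -0.02 in the sod-3 double mutant (adjusted p = 0.955). In the sod-5 double mutant the difference from wild type was -0.44 (interval -0.78 to -0.10, adjusted p = 0.0568). It passed the threshold without sod-5 double mutant replicate 2 (log2 difference -0.61, adjusted p = 0.0142) and without sod-3 double mutant replicate 2 (0.0491). Against isp-1 the difference was -0.33 in the sod-5 double mutant (adjusted p = 0.442) and 0.10 in the sod-3 double mutant (adjusted p = 0.920), and the sod-3 double mutant exceeded the sod-5 double mutant by 0.43 (adjusted p = 0.920).

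The gene irg-8 (WBGene00022645, chrV:415870-417706, minus strand, 6 exons and 1244 exon bases) fell in isp-1 and again in each double mutant. Wild type libraries held 489, 410 and 394 CPM, and isp-1 libraries 142.4, 164 and 114 CPM. The sod-3 double mutant libraries held 50.1, 36.4 and 55.4 CPM and the sod-5 double mutant libraries 42.4, 51.1 and 52.7 CPM. Wild type, isp-1 and the double mutants formed 3 ranges with no overlap, and the double mutants overlapped each other. The means were 431 ± 51.2 CPM (SD, n = 3) in wild type, 140 ± 25.4 in isp-1, 47.3 ± 9.8 in the sod-3 double mutant and 48.7 ± 5.53 in the sod-5 double mutant. From wild type to isp-1 irg-8 fell by 1.63 on the log2 scale (SE 0.17, 3.09-fold lower, limma adjusted p = 4.14e-05). From isp-1 it fell by 1.56 in the sod-3 double mutant (2.95-fold lower, adjusted p = 0.000227) and by 1.505 in the sod-5 double mutant (2.84-fold lower, adjusted p = 0.000293). The sum of both steps left the sod-3 double mutant 9.12-fold and the sod-5 double mutant 8.76-fold below wild type (adjusted p = 4.35e-08 and 4.44e-08). The double mutants differed from each other by -0.06 (interval -0.42 to 0.30, adjusted p = 0.967). All of these calls against wild type and against isp-1 held under every alternative run, with adjusted p-values of at most 0.0112 in isp-1 against wild type and in both comparisons with isp-1.

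**Figure D2:**
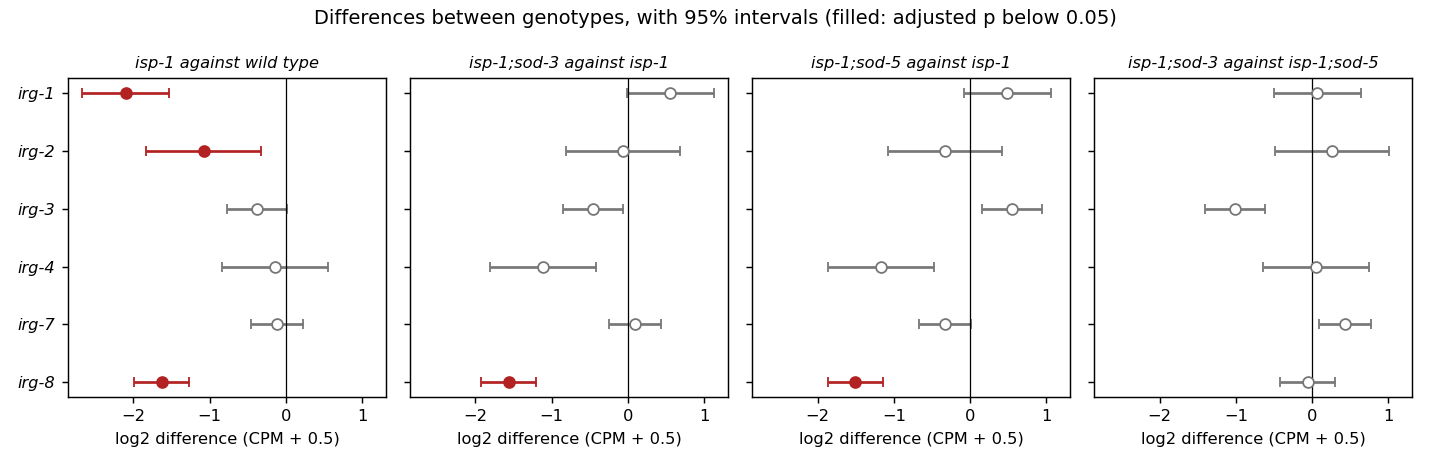
Log2 differences on the log2(CPM + 0.5) scale (horizontal axes) of the 6 tested irg genes in 4 comparisons; points are limma estimates, lines their 95% intervals and filled points those with an adjusted p below 0.05. In both comparisons with isp-1 the filled point is irg-8, at -1.56 and -1.505, while irg-4 at -1.12 and -1.17 is open.

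The genes whose pattern was most like irg-8 over the 12 libraries, by Pearson correlation of log2(CPM + 0.5) among 13277 genes with a mean of at least 1 CPM, were lys-4 (r = 0.99), T05B11.4 (r = 0.98) and ilys-5 (r = 0.98). The libraries share their genotype differences, so r mostly reflects the order of the 4 groups. A lysozyme gene, lys-4, averaged 220 CPM in wild type, 75.7 in isp-1, 31.4 in the sod-3 double mutant and 38.3 in the sod-5 double mutant. The invertebrate-type lysozyme gene ilys-5 averaged 481, 226, 69.4 and 83.9 CPM in the same order. Lysozymes cut bacterial cell walls. Both were picked for their likeness to irg-8 in these libraries, so their differences are a description with no test. The log2 differences of lys-4 were -1.56 in isp-1 against wild type and -1.26 and -0.96 in the double mutants against isp-1, and those of ilys-5 were -1.09, -1.71 and -1.43.

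For irg-1 the most alike were dml-1 (r = 0.96), C55C3.3 (r = 0.95) and sec-23 (r = 0.94), a subunit of the COPII vesicle coat. The genes nearest to irg-4 were the cytochrome P450 gene cyp-14A5, drd-5 and the UDP-glucuronosyltransferase gene ugt-46 (each r = 0.95). Those for irg-7 were atrn-1, T25C12.3 and pyr-1 (r = 0.92, 0.92 and 0.90), and those for irg-3 F56F4.8, F10E7.5 and ZC53.1 (r = 0.89, 0.87 and 0.84). For irg-2, near 1 CPM, they were the histone gene his-67, tag-151 and C55A6.10 (each r = 0.90). Among the irg genes themselves the closest pair was irg-8 and irg-4 (r = 0.84 over 12 libraries, 0.66 for deviations from the group means). Next were irg-8 with irg-1 and with irg-2 (r = 0.68 each), but deviations of irg-8 and irg-2 within groups ran opposite (r = -0.75).

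**Figure D3:**
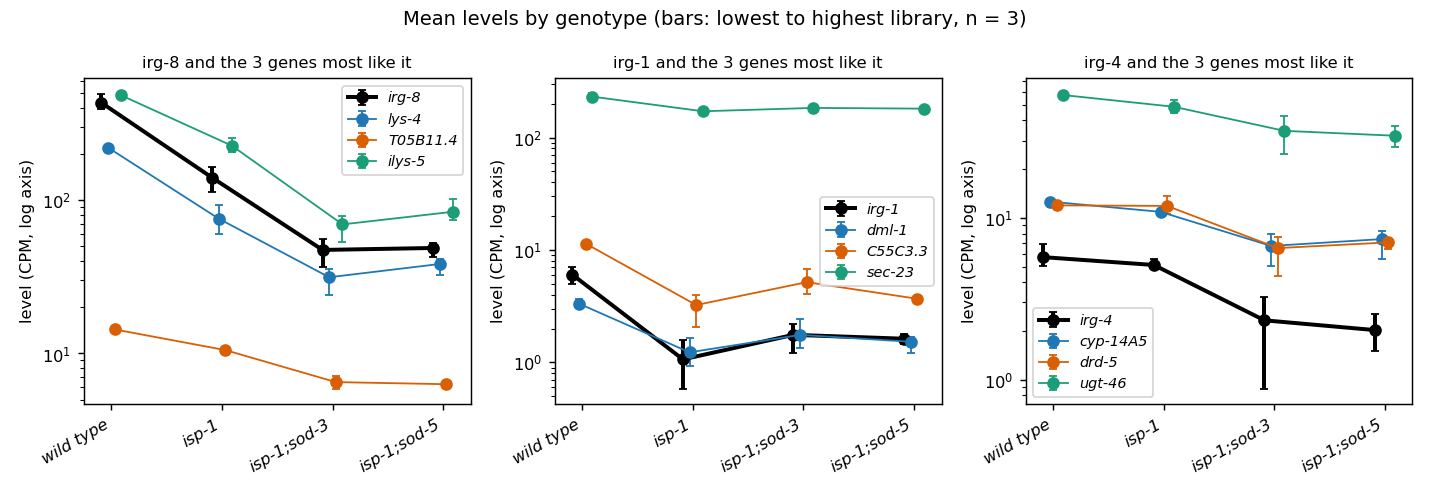
Mean levels in CPM (vertical axes, log scale) by genotype of irg-8, irg-1 and irg-4, each with the 3 genes most like it; bars run from the lowest to the highest of 3 libraries. The lines of lys-4 and ilys-5 descend with irg-8 from wild type to isp-1 and to the double mutants, where irg-8 averages 47.3 and 48.7 CPM.

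Genes near the members were then read from the annotation, since several irg genes sit among related genes. Within 10 kb of the 8 irg genes 65 other genes are annotated, of which 34 were in the matrix and 33 were tested. In isp-1 against wild type limma called 3 of the 33 higher and 6 lower, beside 9.60% and 10.4% of all tested genes. By edgeR 4 were higher and 11 lower, by DESeq2 4 and 9, and 5 and 12 passed an unadjusted limma p under 0.05. Of the 6 lower by limma, 2 exceeded 1 CPM in wild type libraries alone, and C49G7.12 passed the filter only with its wild type libraries. Against isp-1, 6 fell and 0 rose in the sod-3 double mutant (0.528% of all genes were lower), and 5 fell and 1 rose in the sod-5 double mutant (0.564% lower, 0.642% higher). There edgeR called 7 and 5 lower and 0 higher, and DESeq2 8 and 7 lower and 0 and 1 higher. Against wild type 11 fell and 4 rose in the sod-3 double mutant (6.57% lower, 10.4% higher) and also in the sod-5 double mutant (10.2% lower, 14.1% higher). These falls include cyp-35A4, C49G7.7 and C49G7.12. None of the 8 annotated genes around irg-1 was in the matrix, and the 3 tested around irg-3 did not pass the threshold in these comparisons.

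Around irg-2, 4 of 6 tested neighbours were called lower in isp-1. The cytochrome P450 gene cyp-35A4 (log2 difference -1.46) and C49G7.7 (-1.09) exceeded 1 CPM in wild type libraries alone, so that they could be tested at all only by being high there, and their values are a description. C49G7.12 (-2.32) was above 1 CPM in 1 library outside wild type, so it too passed the filter only through wild type, and its value is a description. The remaining gene was C49G7.10 (-1.32, 12.6 CPM in wild type and a mean of 4.82 in isp-1, adjusted p = 0.00298). Around irg-5, dct-17 fell at each step, by 0.83 in isp-1 against wild type (adjusted p = 0.0272), and against isp-1 by 1.42 in the sod-3 double mutant (0.00688) and 1.79 in the sod-5 double mutant (0.00124). Its neighbour F35E12.6 fell by 0.95 and 0.92 in the double mutants (adjusted p = 0.00291 and 0.00340), with -0.38 in isp-1 against wild type (0.0768). Also near irg-5, F35E12.10 fell by 0.75 in the sod-3 double mutant against isp-1 (0.0387). For irg-5 itself no step from isp-1 to a double mutant was seen on its few reads.

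Of 5 tested genes around irg-6 (annotated at chrIV:12912722-12914969, minus strand), 2 rose in isp-1 and 0 fell, and the other values ran from -1.13 for srlf-4 (adjusted p = 0.122) to 0.56 for K08D8.4 (0.164). There C32H11.4 rose by 2.57 in isp-1 (from a mean of 2.80 to one of 19.4 CPM, adjusted p = 0.000203). It then fell by 1.84 in the sod-3 double mutant and by 1.96 in the sod-5 double mutant against isp-1 (adjusted p = 0.00950 and 0.00648). Also near irg-6, K08D8.5 rose by 0.92 in isp-1 (0.00399) and fell by 0.81 in the sod-3 double mutant (0.0444), with -0.63 in the sod-5 double mutant (0.123). Around irg-8, dod-19 fell by 1.06 in isp-1 (adjusted p = 0.000873). Against isp-1 dod-19 differed by -0.59 in the sod-3 double mutant (95% interval -0.94 to -0.25, adjusted p = 0.133) and by -0.43 in the sod-5 double mutant (-0.78 to -0.09, 0.287). The other called neighbour of irg-8, Y39D8A.1, differed by 0.10 in isp-1 (0.740) and fell by 0.95 and 1.01 in the double mutants (0.0178 and 0.0114). Thus irg-8 was called lower in all 3 comparisons. The estimates of dod-19 were also lower in all 3, but passed the threshold only in isp-1 against wild type, and Y39D8A.1 passed only against isp-1. Beside irg-4, C25G4.2 rose by 0.69 in isp-1 (0.00269) and by a further 0.66 in the sod-5 double mutant (0.0172), with 0.51 in the sod-3 double mutant (0.0795), while beside irg-7 F28B4.3 fell by 0.70 in the sod-5 double mutant against isp-1 (0.0416).

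**Figure D4:**
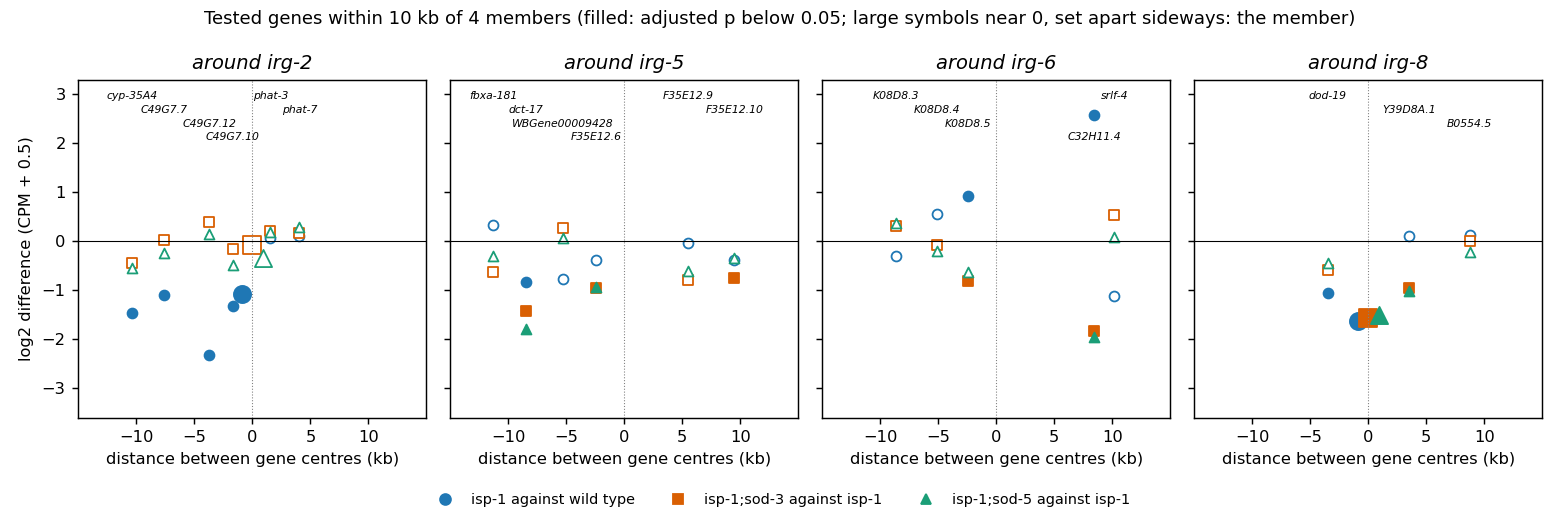
Log2 differences (vertical axes) of tested genes within 10 kb of 4 irg genes against the distance between gene centres in kb (horizontal axes); colours are the comparisons, filled symbols have an adjusted p below 0.05 and large symbols near 0 kb are the irg gene. Around irg-2 the filled symbols belong to isp-1 against wild type, from -1.09 to -2.32. Of these genes, cyp-35A4, C49G7.7 and C49G7.12 could be tested only through their wild type libraries.

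Of the regulators, the p38 list held 15 tested genes, and in isp-1 against wild type limma called 1 of them, tir-1, the adaptor at its head, where 9.60% of all tested genes were higher. It rose by 0.48 (20.3 to 28.4 CPM, adjusted p = 0.0362). The other named members were not called: pmk-1 differed by 0.28 (0.141), nsy-1 by 0.20 (0.366), sek-1 by -0.07 (0.757) and atf-7 by 0.08 (0.695). Against isp-1 limma, edgeR and DESeq2 each called 0 of the 15 in either double mutant, with 0 at an unadjusted p under 0.05 in the sod-3 double mutant and 2 lower in the sod-5 double mutant. Transcripts of zip-2, on which irg-1 induction depends, averaged 141 CPM in wild type, 121.9 in isp-1, 145 in the sod-3 double mutant and 140 in the sod-5 double mutant, with a log2 difference of -0.20 in isp-1 (adjusted p = 0.396). Its partner cebp-2 differed by 0.02 (0.944). These are transcript levels, and the activity of the kinases and factors was not measured.

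Within the 12 tested bZIP factors limma called 2 higher and 1 lower in isp-1, beside 9.60% and 10.4% of all tested genes. Of these, zip-8 rose by 1.53 (2.37 to 7.75 CPM, adjusted p = 0.00135), and atfs-1, the factor of the mitochondrial unfolded protein response, rose by 0.52 (0.00709). The C/EBP gene cebp-1 fell by 0.54 (0.0471). In the double mutants against isp-1 all 3 tools called 0 of the 12, with 3 and 1 at an unadjusted p under 0.05 in limma. Of 30 other immune regulators tested, limma called 1 in isp-1, higher, beside 9.60% of all tested genes. It was nhr-57, a nuclear hormone receptor gene, which rose by 1.35 (adjusted p = 0.00259). For hlh-30, the worm's TFEB, the difference was 0.06 (0.830). Limma called 0 of the 30 in either double mutant against isp-1, with 1 at an unadjusted p under 0.05 in each, while edgeR called 1 and 0 and DESeq2 1 and 1.

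Other genes that rise on infection went both ways. Of 32 tested, 11 rose and 6 fell in isp-1, beside 9.60% and 10.4% of all genes (1 of the 6, cyp-35A3, was testable through wild type alone), with a median log2 difference of 0.12 against 0.01 over all genes. Those with the smallest adjusted p were fmo-2, a flavin monooxygenase gene, which rose by 3.85, sysm-1, which rose by 3.56, and the aspartyl protease genes asp-12 and asp-17, which fell (log2 differences -2.988 and -2.997). In the sod-3 double mutant against isp-1 1 rose and 3 fell (0.557% and 0.528% of all genes), and in the sod-5 double mutant 2 rose and 4 fell (0.642% and 0.564%). The CUB-like gene dod-24 averaged 19.4 CPM in wild type, 38.8 in isp-1, 4.85 in the sod-3 double mutant and 5.05 in the sod-5 double mutant. It thus rose by 0.99 in isp-1 (adjusted p = 0.0227), where irg-8 fell, and fell by 2.91 and 2.85 in the double mutants (6.58e-05 and 7.82e-05), where irg-8 fell too. In both double mutants fmo-2 fell, by 1.31 and 2.03, and sysm-1 fell by 1.68 in the sod-3 double mutant, while spp-1, a saposin-like peptide gene, rose by 0.51 and 0.66. The C-type lectin gene clec-41 fell by 0.75 in the sod-5 double mutant and was not called in the sod-3 double mutant. At most 4 genes of a list were named in each comparison, so further calls in the sod-5 double mutant are not named here.

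**Figure D5:**
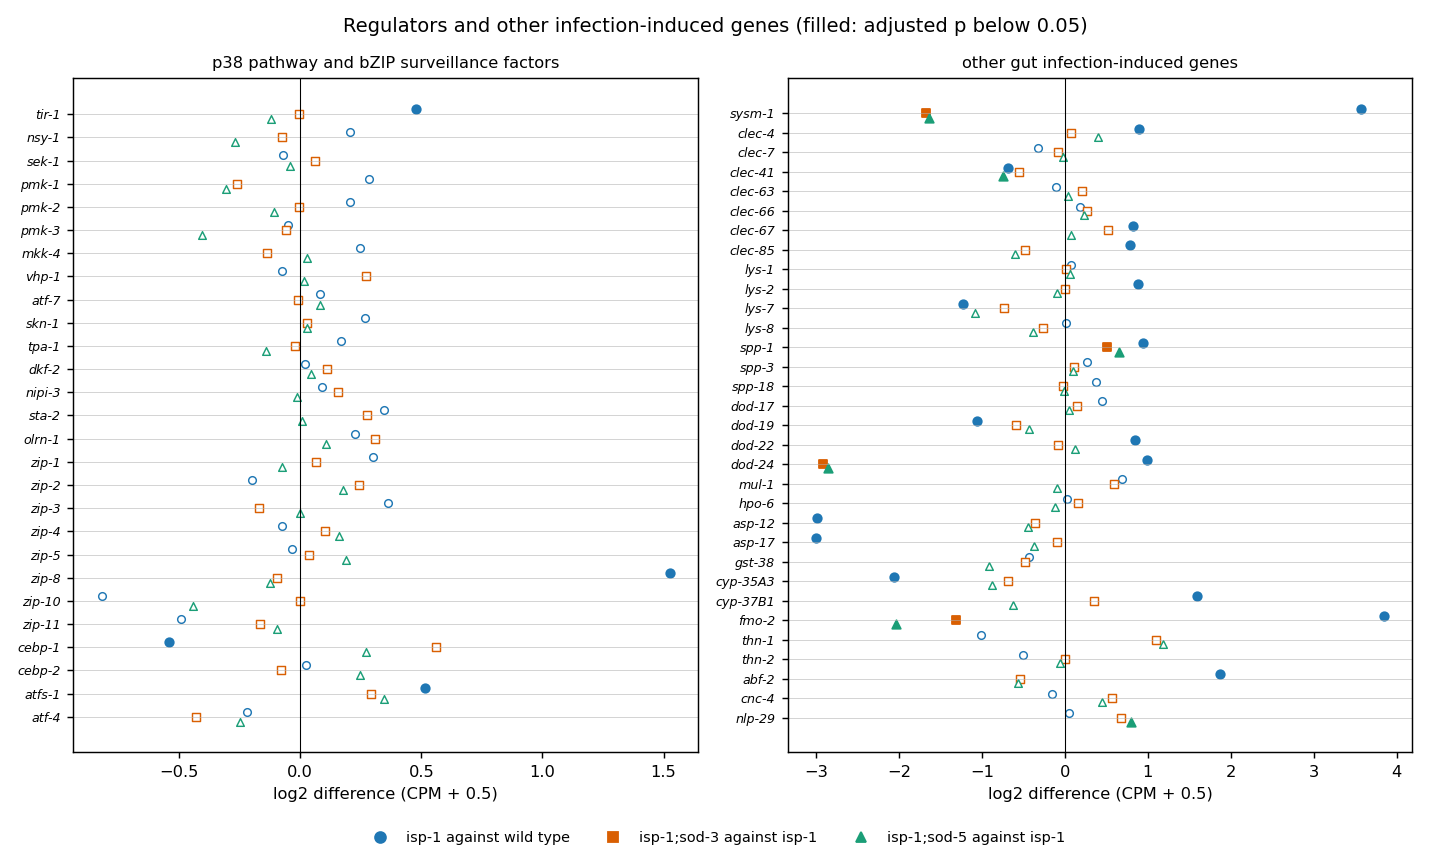
Log2 differences (horizontal axes) of immune regulators and of other infection-induced genes in isp-1 against wild type and in each double mutant against isp-1; filled symbols have an adjusted p below 0.05. Among the p38 genes the filled symbol is tir-1 in isp-1, at 0.48, whereas dod-24 is filled at 0.99 in isp-1 and at -2.91 and -2.85 in the double mutants.

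The response to intracellular pathogens, a set induced by microsporidia and viruses, had 12 tested genes. In isp-1 limma called pals-25 and eol-1, which rose by 0.69 and 1.1404 (adjusted p = 0.0191 and 0.0206), beside 9.60% of all genes, and it called 0 lower, with 1 lower at an unadjusted p under 0.05. By edgeR 3 were higher and 1 lower, and by DESeq2 2 and 1. In the sod-3 double mutant against isp-1 pals-6 rose by 1.18 (0.00578), the only limma call of the 12, beside 0.557% of all genes. In the sod-5 double mutant against isp-1 limma, edgeR and DESeq2 called 0, with 2 at an unadjusted p under 0.05. Of the 6 yolk genes, transcribed in the adult intestine, 2 fell in isp-1 (10.4% of all genes) and 4 in each double mutant against isp-1 (0.528% and 0.564%). Their summed level overlapped between wild type and isp-1, at 53050 to 57413 CPM in wild type and 53579 to 69147 in isp-1, and was 39688 to 59885 and 29646 to 50525 in the double mutants. Of these vit-3 averaged 2776 CPM in wild type, 1012 in isp-1, 292 in the sod-3 double mutant and 210 in the sod-5 double mutant, and fell in all 3 comparisons, as irg-8 did. It fell by 1.46, then by 1.79 and 2.30 (adjusted p at most 0.000160). The yolk gene vit-4 fell by 0.49, 1.52 and 1.81 in the same comparisons (adjusted p at most 0.0317), and vit-1 and vit-5 fell in both double mutants against isp-1.

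Sperm markers moved with the fall of irg-1, irg-2 and irg-8 in isp-1. Over all 11 genes their summed level was 248 to 276 CPM in wild type, 80.8 to 119.2 in isp-1, 60.7 to 221 in the sod-3 double mutant and 87.9 to 166 in the sod-5 double mutant, none being at 0 in all libraries of a group. In isp-1 against wild type 9 of the 11 fell, beside 10.4% of all tested genes, among them msp-32 by 1.72 and gsp-4 by 1.54. Yolk and sperm genes are timed by the passage into adulthood, and the part of developmental timing in the irg differences was not tested. Against isp-1 the sperm list gave 0 calls in either double mutant by limma and edgeR. At an unadjusted p under 0.05 there was 1 in each, and DESeq2 called 1 in the sod-3 double mutant. The median log2 difference of the sperm list against isp-1 was 0.41 in the sod-3 double mutant and 0.38 in the sod-5 double mutant. Markers of hypodermis, muscle, neurons, germline, coelomocytes and glia, 41 tested genes together, gave 0 calls by limma in isp-1 against wild type (3 at an unadjusted p under 0.05, 2 each by edgeR and DESeq2). They also gave 0 in both double mutants against isp-1 (2 and 1 unadjusted, 0 by either other tool). Against wild type limma called 2 higher in the sod-3 double mutant and 1 in the sod-5 double mutant, beside 10.4% and 14.1% of all tested genes. The summed muscle markers did not overlap, at 8483 to 9623 CPM in wild type and 7317 to 7923 in isp-1, whereas sums of the other lists named here did. Of 7 pharynx markers pha-4 rose by 0.64 and myo-2 fell by 0.76 in isp-1, beside 9.60% and 10.4% of all tested genes. The sum of the 7 was 547 to 656 CPM in wild type against 361 to 429 in isp-1.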

How the data were processed

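The deposited matrix holds CPM values made by the authors from whole worm RNA. The submitters' processing notes name featureCounts 1.4.6, Subread 1.5.0, R 3.3.0 with edgeR 3.14.0, and build WBcel235, without their order. The library kit keeps strand, per the labels' protocols. Every gene exceeded 1 CPM in at least 2 libraries. All CPM values (100.0%) were whole multiples of 1 read within 0.001 reads, which gave back read counts. Libraries of a group differed beyond sampling noise (chi-square per degree of freedom at least 5.06), so none was merged.

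Differences were tested with limma 3.58.1 in R 4.3.3 (trend and robust options) on log2(CPM + 0.5), all 12 libraries in one fit, two-sided, with Benjamini-Hochberg adjustment over 14013 genes within a comparison and a threshold of 0.05. The added 0.5 understates folds of low genes. Libraries of a group varied less in wild type and isp-1 (median SD of log2 values 0.12 and 0.13) than in the double mutants (0.22 and 0.27). The script was checked on simulated data. Errors are SD over libraries or limma SE, and intervals are 95%. For irg-5 an exact permutation test was used. Groups come from the genotype labels, and replicate numbers only name libraries.

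The 8 genes, the 14 lists and the tests were chosen with earlier results of these data known. Named genes are the irg genes, isp-1, sod-3, sod-5, pmk-1, zip-2, cebp-2, atf-7, tir-1, nsy-1, sek-1 and hlh-30. Up to 4 called members of a list with the smallest adjusted p were named in isp-1 against wild type and in each double mutant against isp-1. Neighbours within 10 kb called in these comparisons and the 3 genes most like each tested irg gene were also named. The profile of dod-24 in isp-1 was added after its values were seen. Coordinates and exon lengths are from the Ensembl annotation of WBcel235. Sequences were not used here. Alternatives covered the filter, pseudocount, scaling, edgeR 4.0.16 and DESeq2 1.42.0 on recovered reads, the groups in the fit, library weights, a replicate block and each library left out.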

Additional observations from a re-analysis of the deposited data

How the results depend on the processing

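Leaving out each library in turn moved the count of called genes from 2798 to between 1088 and 3581 in isp-1 against wild type, from 152 to between 89 and 228 in the sod-3 double mutant against isp-1, and from 169 to between 89 and 261 in the sod-5 double mutant against isp-1. Between the double mutants it moved from 15 to between 10 and 18, and against wild type from 2379 to between 1211 and 3525 in the sod-3 double mutant and from 3402 to between 1865 and 4162 in the sod-5 double mutant. The irg genes called, in the same order of comparisons, ranged from 2 to 3, 1 to 1, 1 to 2, 0 to 1, 3 to 5 and 3 to 5. A filter at a mean of 5 CPM gave 1451, 1538 and 2048 genes in isp-1 and in both double mutants, sod-3 first, against wild type with 1, 2 and 1 irg genes, since it leaves irg-1, irg-2 and irg-4 untested. Array weights gave 7284, 1209, 286, 25 and 7455 genes in the first 5 comparisons, and fits of only the compared groups gave 5702 in isp-1 against wild type and 2 between the double mutants. DESeq2 gave 323 and 337 genes against isp-1 and 28 between the double mutants. Median centring, quantile normalization, DESeq2 and array weights each called 2 irg genes in both comparisons with isp-1, irg-4 beside irg-8, and DESeq2 called 1 between the double mutants; the cause was not tested. Median centring moved the share of calls that were higher from 61.3% to 44.7% in the sod-3 double mutant and from 58.0% to 43.1% in the sod-5 double mutant against wild type, and TMM factors moved it to 51.3% and 44.5%, and from 53.3% to 42.4% in the sod-5 double mutant against isp-1. Quantile normalization moved it to 50.9% in the sod-3 double mutant against wild type.

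Same-numbered libraries of different genotypes did not deviate together (r from -0.545 to 0.329 over 18 pairs, and 1 of 12 libraries correlated best with its own number). With the replicate block 2182, 127, 123, 13, 1824 and 2751 genes and 2, 1, 1, 0, 4 and 4 irg genes were called in the order above, and the irg calls lost were irg-2 in isp-1 (adjusted p = 0.0776) and in the sod-3 double mutant (0.0698) against wild type.

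Of 924 alternative values of single irg genes 859 kept direction and side of the threshold, 24 lost the threshold, 17 passed it and 24 changed sign. Leaving out a library outside a comparison cannot change its log2 difference, so direction was fixed there. The irg-5 values with a library left out could only keep or change sign, since the exact p cannot fall below 0.1. Its limma values against wild type without the filter are among the 17, though irg-5 is in the matrix through wild type alone. All that changed sign were uncalled and close to 0. For irg-8 between the double mutants the values were 0.0059 with quantile normalization, 0.0093 with TMM factors, 0.030 with edgeR and 0.020 with array weights, and -0.18 to 0.12 with a library left out. For irg-1 in that comparison array weights gave -0.17. For irg-7 in the sod-3 double mutant against wild type they were 0.046 with quantile normalization and 0.020 with the ribosomal RNA gene rrn-3.1 left out of the totals, a setting chosen after seeing the data. With a library left out the ranges were -0.087 to 0.060 for that value, and -0.074 to 0.26 for irg-1, -0.21 to 0.51 for irg-4 and -0.048 to 0.35 for irg-5 between the double mutants. Against isp-1 they were -0.49 to 0.20 for irg-2 and -0.080 to 0.16 for irg-5 in the sod-3 double mutant, and -0.33 to 0.066 for irg-5 in the sod-5 double mutant. For irg-3 in the sod-5 double mutant against wild type the range was -0.0073 to 0.29.

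Depth limits irg-1, irg-2 and irg-5 most, at 0 to 36 reads in the isp-1 and sod-5 double mutant libraries. It also limits irg-4 in the double mutants, at 11 to 51 reads in the sod-5 double mutant and 13 in sod-3 double mutant replicate 2.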
